A study of Homo sapiens with 6 samples.

Results

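The genes described here are 10 of the 58395 genes counted: the Toll-like receptors TLR1, TLR2, TLR4, TLR5, TLR6 and TLR8, the lipopolysaccharide (LPS) co-receptors CD14 and LY96, the adaptor MYD88 and the receptor escort UNC93B1. They were chosen by name, with earlier results of these data known, and all 10 names had a row in each of the 6 count files. RNA was sequenced from THP-1, an established human line from a monocytic leukaemia, exposed to 1 µM monensin for 16 h (3 libraries) or left without exposure (3 untreated libraries). Monensin is an ionophore that exchanges sodium ions for protons across membranes. The labels name no vehicle for the untreated cells, so an effect of a vehicle and one of monensin cannot be told apart. THP-1 is a single line, and the labels leave unsaid whether the 3 libraries of a group are separate cultures; p-values therefore reflect the spread between these libraries, which may be technical.

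Toll-like receptors are membrane proteins that bind microbial molecules with an ectodomain of leucine-rich repeats and signal through a cytosolic TIR domain. At the cell surface, CD14 hands LPS to the complex of TLR4 with MD-2, the product of LY96, and TLR2 pairs with TLR1 or TLR6 to bind bacterial lipopeptides. TLR5 binds flagellin, and TLR8 binds single-stranded RNA in acidified endosomes. MYD88 links these receptors to the IRAK kinases, and UNC93B1 carries the endosomal receptors, and also TLR5, out of the endoplasmic reticulum. THP-1 cells are widely used as a model of monocytes and carry little CD14 until they are differentiated.

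The messages for CD14, LY96 and TLR5 rose with monensin, whereas those for TLR2 and MYD88 fell slightly and those for TLR1, TLR6 and UNC93B1 did not pass the test. TLR4 was called slightly lower, but its call was lost under most alternative settings, and TLR2 lost its call after removing trends with GC content and length. CD14 averaged 2.37 ± 0.289 counts per 1000000 counted reads (CPM) in monensin libraries and 0.480 ± 0.0691 CPM in untreated libraries, and LY96 averaged 0.915 ± 0.153 CPM in monensin libraries and 0.1099 ± 0.0255 CPM in untreated libraries (mean ± SD, n = 3 each). TLR8 was below the filter on low counts in both groups, with 22 reads over the monensin libraries and 2 over the untreated libraries. CPM here use library sizes scaled by TMM. Genes were called where the adjusted p (Benjamini-Hochberg) was under 0.05 in edgeR's quasi-likelihood test over the 16542 genes that passed the filter. Of the 9 members tested, 3 were called higher and 3 lower, where 34.1% of all tested genes were called higher and 33.7% lower. These member shares, 33.3% each way, were close to those of all genes. CD14 and LY96 passed the filter only through the monensin libraries. The filter needed 3 of the 6 libraries, and 2 untreated libraries reached it for CD14 and 0 for LY96. For LY96, presence among the tested genes therefore already required a difference. CD14 could have passed without a difference, since these 2 untreated libraries and a monensin library at their level would have sufficed. The monensin and untreated libraries did not overlap in CPM for 5 of the 9 tested members, against 71.1% of all tested genes. In a bulk sample, more cells with a message and more message per cell cannot be told apart.

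Gene counts ran from 22975888 to 25710513 per library. The 10 monocytic markers summed to between 1975 and 2069 CPM in monensin libraries and between 2086 and 2158 CPM in untreated libraries, and all 10 were detected. Within that list 8 of the 10 markers were called. The lysozyme gene LYZ fell by 1.44 on the log2 scale (adjusted p = 2.34e-12, edgeR), and MPO (-0.63) and CD33 (-0.4) also fell. The lysosomal glycoprotein gene CD68 rose by 1.10 (adjusted p = 7.01e-07, edgeR), as did CEBPA (0.68), FCGR1A (0.52), SPI1 (0.34) and CD4 (0.17). The similar sums hide opposite changes: LYZ averaged 292 CPM with monensin and 791 CPM without it, and CEBPA 799 CPM with monensin and 499 CPM without it. All 4 erythroid and all 4 epithelial markers were at 0 in every library, and so were CD3E and CD3G of the T cell list. The 4 NK cell markers summed to between 29.4 and 31.4 CPM with monensin and to between 13.8 and 16.8 CPM without it, most of it NKG7, while KLRD1 was at 0. The 4 B cell markers summed to between 4.25 and 5.53 CPM with monensin and to between 2.19 and 3.09 CPM without it, with MS4A1 at 1 read in all 6 libraries together. The 4 fibroblast markers summed to between 3.12 and 3.51 CPM with monensin and to between 1.93 and 2.77 CPM without it, with COL1A2 at 0. The endothelial and T cell lists stayed at or below 0.240 CPM in every library. The part of these shifts in the values below was not tested.

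Promoter sequences of 3 members are shown because CD14 and TLR5 rose while TLR4, which works with CD14, did not. Each runs from 250 bases before to 50 bases after the RefSeq start on GRCh38.p14, 5′ to 3′ on the strand of the gene. Capitals mark matches on either strand to 6 motifs: the PU.1 core GAGGAA, the SP1 box GGGCGG, the AP-1 motif TGANTCA, the TFEB motif TCACGTGA, the ATF4 motif TGATGNAA and the NF-kB consensus.
CD14, chr5:140633126-140633425, minus strand: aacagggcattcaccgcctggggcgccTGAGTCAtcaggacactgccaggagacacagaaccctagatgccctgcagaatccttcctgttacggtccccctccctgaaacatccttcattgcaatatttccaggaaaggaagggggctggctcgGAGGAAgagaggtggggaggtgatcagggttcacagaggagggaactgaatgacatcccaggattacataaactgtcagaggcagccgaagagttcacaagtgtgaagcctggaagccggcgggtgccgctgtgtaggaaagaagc
TLR5, chr1:223143199-223143498, minus strand: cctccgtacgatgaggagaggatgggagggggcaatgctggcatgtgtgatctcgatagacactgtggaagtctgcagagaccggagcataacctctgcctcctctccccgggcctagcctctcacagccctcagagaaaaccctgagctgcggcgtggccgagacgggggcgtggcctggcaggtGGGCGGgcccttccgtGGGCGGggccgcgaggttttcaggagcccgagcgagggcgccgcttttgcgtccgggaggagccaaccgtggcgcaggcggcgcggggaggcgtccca
TLR4, chr9:117704153-117704452, plus strand: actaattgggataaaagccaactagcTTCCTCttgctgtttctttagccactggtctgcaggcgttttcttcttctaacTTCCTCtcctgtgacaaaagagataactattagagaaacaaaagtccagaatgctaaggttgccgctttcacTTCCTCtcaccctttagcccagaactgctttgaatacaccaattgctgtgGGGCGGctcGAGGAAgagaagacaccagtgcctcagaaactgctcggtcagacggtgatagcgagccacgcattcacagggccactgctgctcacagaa
The CD14 window held 1 PU.1 core and 1 AP-1 motif, the TLR5 window 2 SP1 boxes, and the TLR4 window 4 PU.1 cores and 1 SP1 box, with no overlaps between motifs. Over all 35116 promoters in the same table, 27.9% held a PU.1 core, 45.0% an SP1 box and 7.7% an AP-1 motif. Windows of 7 members were searched (TLR2, TLR4, TLR5, TLR6, TLR8, CD14 and MYD88), and none was searched for TLR1, LY96 or UNC93B1. Of these 7 windows 4 held a PU.1 core, 4 an SP1 box and 1 an AP-1 motif. TLR2 and MYD88, both called lower, held 2 and 5 SP1 boxes, and MYD88 and TLR6 held 1 PU.1 core each. A link between motif and direction was not tested. The TFEB motif (1.0% of all promoters), the ATF4 motif (3.6%) and the NF-kB consensus (11.3%) had no match in these 7 windows. A match is a string of letters and does not show binding.

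CD14, which captures LPS and passes it on, had 69, 53 and 54 reads in the monensin libraries, against 10, 12 and 13 reads in the untreated libraries. Scaled to depth these were 2.69, 2.12 and 2.31 CPM with monensin and 0.401, 0.515 and 0.526 CPM without it. Every monensin library stood above every untreated library. The log2 fold change was 2.30 (SE 0.23, adjusted p = 2.55e-07), a 4.91-fold rise, and it lay between 2.05 and 2.38 under 14 alternative settings. CD14 is a short gene on chromosome 5 from 140631728 to 140633701, with 1886 bases of exon in GENCODE 29.

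LY96, whose product MD-2 forms the LPS-binding pocket on TLR4, had 28, 21 and 19 reads in the monensin libraries, against 3, 3 and 2 reads in the untreated libraries. Both groups were thinly covered, but the lowest monensin library held more than 6 times the reads of the highest untreated library. The log2 fold change was 3.01 (SE 0.39, adjusted p = 3.92e-06). From the summed reads, 68 with monensin and 8 without, the depth-scaled ratio was 8.38 with a 95% exact counting interval from 4.02 to 20.2. Counting intervals here cover counting error only, since reads without molecular tags need not come from different molecules.

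TLR4, the signalling receptor for LPS, had 346, 374 and 282 reads in the monensin libraries, against 369, 365 and 394 reads in the untreated libraries. This came to 13.5, 15.0 and 12.1 CPM with monensin and to 14.8, 15.7 and 15.9 CPM without it, and the groups overlapped. Its log2 fold change of -0.19 (SE 0.08) passed the threshold narrowly (adjusted p = 0.0473). The call was lost under 9 of the 14 alternatives, among them DESeq2 (adjusted p = 0.0910), total counts alone (adjusted p = 0.275) and leaving out monensin library 1 (adjusted p = 0.0953), monensin library 3 (adjusted p = 0.188), untreated library 2 (adjusted p = 0.0864) or untreated library 3 (adjusted p = 0.11). After removing trends with GC content and length the log2 fold change was 0.07 (adjusted p = 0.388), and with the replicate number as a block the adjusted p was 0.0504. TLR4 lies on chromosome 9 from 117704175 to 117724730, and 3.64% of its 75-base words recur in AL160272.2, an overlapping gene on the same strand. Their exons share 558 bases, 4.2% of TLR4 exons, and reads across these may be missing from both counts. AL160272.2 had 0 reads in every library, which therefore does not show that the TLR4 count is complete.

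**Figure D1:**
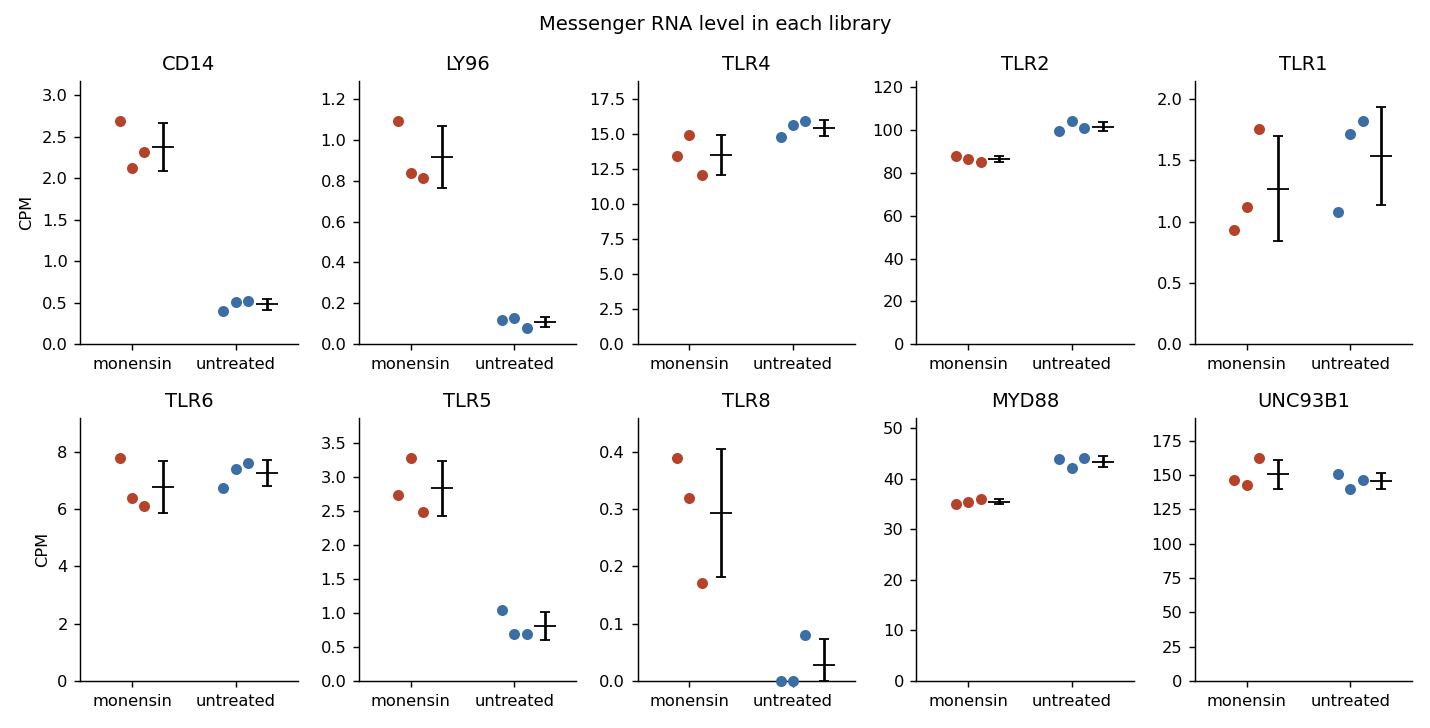
Level of each member in CPM (vertical axis, linear and starting at 0 in each panel) in the 3 monensin libraries (left, red) and the 3 untreated libraries (right, blue); points are libraries, and the bar beside them is the mean ± SD, cut at 0 for TLR8. CD14, LY96 and TLR5 are separated by several-fold, TLR2 and MYD88 are slightly lower with monensin without overlap, and TLR1, TLR4, TLR6 and UNC93B1 overlap.

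The balance between the parts of the LPS receptor differed between the groups. Within a library the count ratio of CD14 to TLR4 was 0.199, 0.142 and 0.191 with monensin, and 0.0271, 0.0329 and 0.0330 without it. For LY96 to TLR4 it was 0.0809, 0.0561 and 0.0674 with monensin, and 0.00813, 0.00822 and 0.00508 without it. Neither ratio overlapped between the groups, and neither depends on library scaling. These ratios are given as a description, without a test. Counts of genes of different length do not compare their levels, so only the difference between the groups can be read from these ratios.

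**Figure D2:**
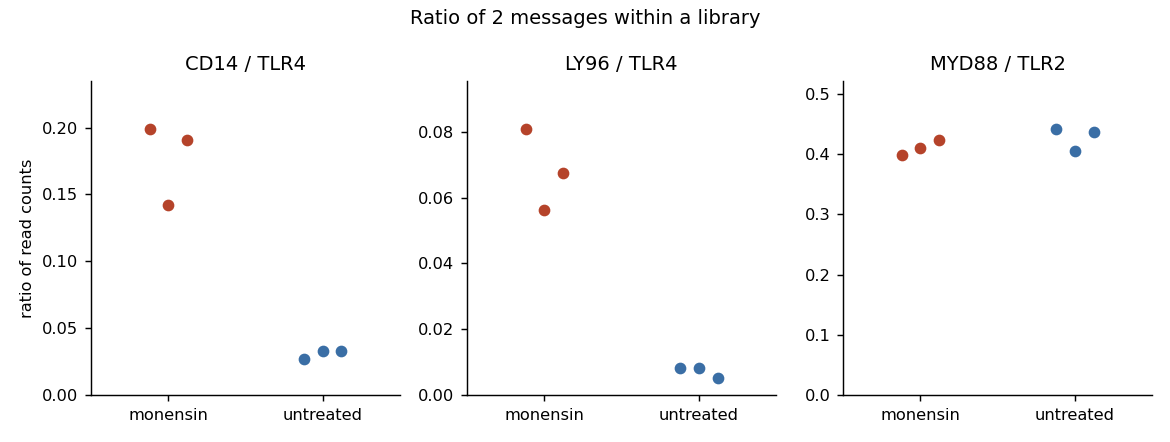
Ratio of read counts of CD14 to TLR4, LY96 to TLR4 and MYD88 to TLR2 within each library (vertical axes, linear from 0), with monensin libraries at the left and untreated libraries at the right; each point is a library. The ratios of both co-receptors to TLR4 are higher in all 3 monensin libraries (for CD14, 0.142 or more against 0.0330 or less), while MYD88 to TLR2 overlaps (from 0.398 to 0.424 against from 0.405 to 0.442).

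TLR2, the shared subunit of the lipopeptide receptors, had 2259, 2157 and 1988 reads in the monensin libraries, against 2485, 2427 and 2500 reads in the untreated libraries. It averaged 86.5 ± 1.43 CPM with monensin and 102 ± 2.26 CPM without it (mean ± SD, n = 3 each). The groups did not overlap, and the difference was small, at -0.23 on the log2 scale (adjusted p = 0.000220, SE 0.04). After removing trends with GC content and length it was -0.03 and not called (adjusted p = 0.480). The longest TLR2 transcript has a GC content of 39.3%. TLR2 lies on chromosome 4 from 153684070 to 153705702.

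TLR1, which pairs with TLR2 on triacylated lipopeptides, was scarce, with 24, 28 and 41 reads in the monensin libraries and 27, 40 and 45 reads in the untreated libraries. The groups overlapped, and the log2 fold change of -0.28 was not called (SE 0.26, 95% interval from -0.80 to 0.23, adjusted p = 0.349). TLR6, which pairs with TLR2 on diacylated lipopeptides, had 200, 160 and 143 reads with monensin and 168, 173 and 188 reads without it. These also overlapped, with a log2 fold change of -0.10 (SE 0.11, 95% interval from -0.31 to 0.12, adjusted p = 0.450), which was 0.05 after removing trends with GC content and length. A 2-fold change in either direction lies outside both intervals.

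TLR1 and TLR6 overlap on the minus strand of chromosome 4, where their annotated exons share 57 bases. Apart from this overlap, their coding sequences hold a run of 218 identical bases, longer than the 75-base reads. The run is shown with 30 bases on either side, because reads from inside it cannot be given to either gene. In capitals are the 2 bases that differ within these 278 bases, from GENCODE 29 on GRCh38.
TLR1, chr4:38797206-38797483: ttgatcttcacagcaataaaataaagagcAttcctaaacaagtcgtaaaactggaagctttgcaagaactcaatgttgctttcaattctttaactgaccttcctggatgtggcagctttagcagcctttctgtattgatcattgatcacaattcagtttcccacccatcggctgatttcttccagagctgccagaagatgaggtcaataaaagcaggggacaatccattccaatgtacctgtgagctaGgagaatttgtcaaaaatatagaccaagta
TLR6, chr4:38827833-38828110: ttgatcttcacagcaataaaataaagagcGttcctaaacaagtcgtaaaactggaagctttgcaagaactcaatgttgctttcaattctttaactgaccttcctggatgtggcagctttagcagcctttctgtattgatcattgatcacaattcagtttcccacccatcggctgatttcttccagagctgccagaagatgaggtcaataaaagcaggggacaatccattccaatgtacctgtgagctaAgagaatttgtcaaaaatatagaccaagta
Of all 75-base words in annotated TLR1 transcripts, 3.14% also occurred in TLR6, and of those of TLR6, 2.45% occurred in TLR1. Reads with more than a single alignment were tallied apart in the deposited files, so both counts are uncertain by at least about these shares. The overlapping bases make up 1.26% of TLR1 exons and 0.94% of TLR6 exons, and reads across them may also be missing from both counts.

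TLR5, the flagellin receptor, had 70, 82 and 58 reads in the monensin libraries, against 26, 16 and 17 reads in the untreated libraries. It averaged 2.83 ± 0.408 CPM with monensin and 0.806 ± 0.205 CPM without it (mean ± SD, n = 3 each), and the lowest monensin library was above the highest untreated library. The log2 fold change was 1.80 (SE 0.22, adjusted p = 2.13e-06), a 3.49-fold rise, and lay between 1.68 and 2.03 under the 14 alternatives. TLR5 lies on chromosome 1 from 223109406 to 223143282.

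TLR8, an endosomal receptor for RNA on chromosome X from 12906620 to 12923169, had 10, 8 and 4 reads in the monensin libraries, against 0, 0 and 2 reads in the untreated libraries. The filter left it out of the main test, and the depth-scaled ratio of the summed reads was 10.8 with a 95% exact counting interval from 2.67 to 95.1. Fitted without the filter it had an adjusted p of 0.000491 by edgeR. Its X-linked neighbour TLR7, which also senses single-stranded RNA, had 26, 43 and 26 reads with monensin and 5, 6 and 2 reads without it. TLR7 rose by 2.81 on the log2 scale (adjusted p = 8.29e-06, SE 0.39) and passed the filter only through the monensin libraries. The other endosomal receptors were near absence in both groups: TLR3 had 7 reads over the monensin libraries and 7 over the untreated libraries, and TLR9 had 6 and 2. TLR10, next to TLR1, had 2 reads over the monensin libraries and 9 over the untreated libraries.

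The adaptor MYD88 had 898, 886 and 842 reads in the monensin libraries, against 1098, 982 and 1092 reads in the untreated libraries. It averaged 35.5 ± 0.545 CPM with monensin and 43.4 ± 1.15 CPM without it (mean ± SD, n = 3 each). The groups did not overlap, and the log2 fold change was -0.29 (SE 0.05, adjusted p = 0.000130). The call held under all 14 alternatives, with log2 fold changes from -0.38 to -0.21. MYD88 lies on chromosome 3 from 38138478 to 38143022.

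UNC93B1, the escort of the endosomal receptors, was the most abundant member, with 3753, 3568 and 3793 reads in the monensin libraries and 3764, 3256 and 3612 reads in the untreated libraries. It averaged 150.5 ± 10.6 CPM with monensin and 146 ± 5.67 CPM without it (mean ± SD, n = 3 each), and the groups overlapped. Its log2 fold change of 0.05 was not called (SE 0.05, 95% interval from -0.05 to 0.15, adjusted p = 0.437). Under total counts alone the log2 fold change was 0.13 (adjusted p = 0.0287). Its direction reversed after removing trends with GC content and length, at -0.24 (adjusted p = 1.29e-05). Without monensin library 3 it was -0.01 and not called (adjusted p = 0.82). Its longest transcript has a GC content of 65.5%. UNC93B1 lies on chromosome 11 from 67991104 to 68004982, and 5.52% of its 75-base words recur in 7 pseudogene copies, each of which had 4 or fewer reads in any library.

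**Figure D3:**
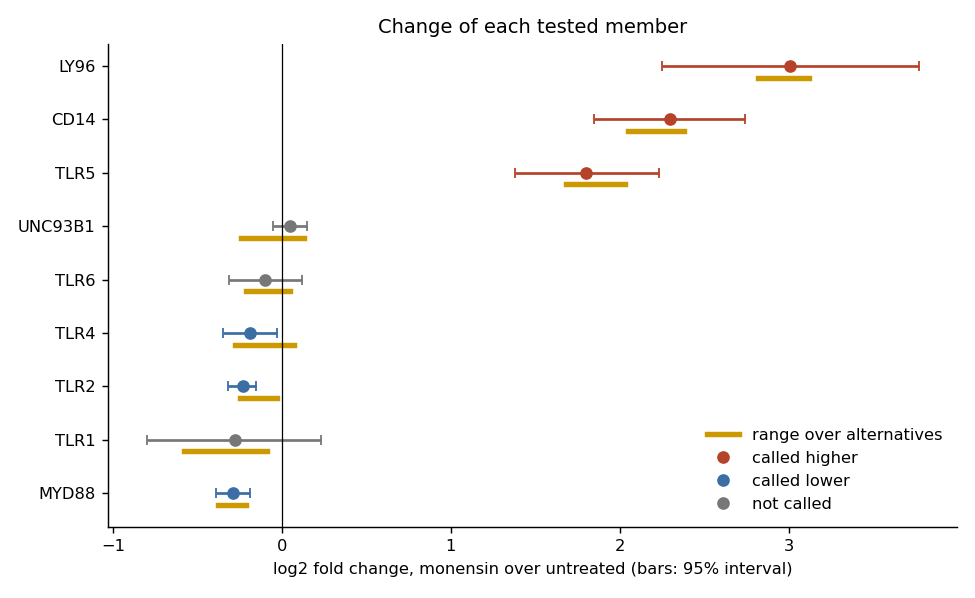
Log2 fold change of monensin over untreated (horizontal axis) for the 9 tested members, as a point with its 95% interval (from the SE); the yellow line under each point spans its values over the alternative settings. LY96 (3.01), CD14 (2.30) and TLR5 (1.80) lie far right of 0, and the remaining 6 members lie between -0.29 and 0.05, where the lines of TLR4, TLR6 and UNC93B1 cross 0.

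Levels of different genes were compared per length, as reads per kilobase of annotated exon per 1000000 counted reads (RPKM). With monensin the order was UNC93B1 (42.4 RPKM), TLR2 (16.6), MYD88 (8.90), LY96 (1.51), CD14 (1.26), TLR6 (1.12), TLR4 (1.02), TLR5 (0.364), TLR1 (0.280) and TLR8 (0.0675). Neighbours from LY96 to TLR4, and TLR5 with TLR1, overlapped between libraries. In untreated cells the order was UNC93B1 (41.0 RPKM), TLR2 (19.5), MYD88 (10.9), TLR6 (1.20), TLR4 (1.17), TLR1 (0.339), CD14 (0.255), LY96 (0.181), TLR5 (0.104) and TLR8 (0.00620). Here TLR6 overlapped with TLR4, TLR1 with CD14, and LY96 with TLR5. The top 3 places were the same in both groups. The places of TLR4, TLR6, LY96 and CD14 depended on the length assumed. For TLR4 the exons span 13272 bases and the principal transcript is much shorter. With principal transcript lengths TLR4 stood at 2.49 RPKM with monensin and 2.85 RPKM without it, above TLR6 in both groups, though overlapping with it under monensin. LY96 (1.51 RPKM) and CD14 (1.44 RPKM) then lay below TLR6 (2.30 RPKM) in monensin libraries without overlap, and in untreated libraries LY96 (0.181 RPKM) stood below TLR5 (0.242 RPKM) with overlap.

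TLR2 made up most of the Toll-like receptor messages. Of the summed RPKM of TLR1 to TLR10, TLR2 held 84.1% ± 0.654 in monensin libraries and 87.0% ± 0.527 in untreated libraries (mean ± SD, n = 3 each). TLR5 held 1.85% ± 0.2501 with monensin and 0.465% ± 0.130 without it, and TLR7 held 1.25% ± 0.369 with monensin and 0.154% ± 0.0757 without it. TLR4 held 5.16% ± 0.489 with monensin and 5.20% ± 0.134 without it, and TLR6 held 5.68% ± 0.647 with monensin and 5.37% ± 0.253 without it. The shares of TLR2, TLR5, TLR7, TLR8 and TLR10 did not overlap between the groups, while those of TLR1, TLR3, TLR4, TLR6 and TLR9 did. For comparison, the groups did not overlap in CPM for 71.1% of all tested genes. Shares of a sum also depend on each other. The share of TLR8 was higher and that of TLR10 lower with monensin, both from few reads. The summed level was 19.7 ± 0.419 RPKM with monensin and 22.4 ± 0.554 RPKM without it.

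Among 98 genes of the lists described below and other members, likeness to LY96 and CD14 was measured as the Euclidean distance between log2 CPM values centred over the 6 libraries. The order depended on the pseudocount, since the 0.25 CPM used is above the level of LY96 in untreated libraries and shrinks its change. With 0.25 CPM the profiles closest to LY96 were NFKB2 (0.277), TNFAIP3 (0.299) and CD14 (0.369), and those closest to CD14 were TNFAIP3 (0.318), LY96 (0.369) and ATF3 (0.446). With 0.01 CPM, chosen after seeing the data, those closest to LY96 were ICAM1 (0.906), TLR7 (1.06) and CD14 (1.07), and those closest to CD14 were ATF3 (0.511), ICAM1 (0.518) and TNFAIP3 (0.658). LY96 and CD14 had the largest log2 fold changes of the tested members, at 3.01 and 2.30. Over libraries of the same groups, these distances largely restate the fold changes. All candidates were pathway genes or members, so the kind of neighbour was set by the choice of genes.

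Around the receptors, 10 lists held 108 genes of the pathway, of which 90 were tested, 44 were called higher (48.9%) and 26 lower (28.9%), beside 34.1% and 33.7% of all tested genes. Their median log2 fold change was 0.15, beside 0.02 over all tested genes. Of 11 accessory and folding genes, 9 were tested, 5 rose (55.6%) and 2 fell (22.2%), with a median of 0.15. After removing trends with GC content and length, 4 fell and the median was 0.35. LY86, which encodes MD-1, the relative of MD-2, averaged 39.6 CPM with monensin and 19.3 CPM without it (log2 fold change 1.03, SE 0.07, adjusted p = 1.64e-09). CD180, the partner of MD-1, had 2.37 CPM with monensin and 1.14 CPM without it (log2 fold change 1.05, adjusted p = 0.000141) and is named after its values were seen. GRN, which encodes progranulin, averaged 1143 CPM with monensin and 486 CPM without it (log2 fold change 1.23). HSP90B1, the chaperone that folds Toll-like receptors, rose by 0.45 on the log2 scale (adjusted p = 2.27e-08), and its cofactor CNPY3 had 0.15 (adjusted p = 0.00748), which was -0.12 after removing trends with GC content and length.

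Of 6 proteases and reductases that act on endosomal receptors or their ligands, 5 were tested, 4 rose (80.0%) and 0 fell. Their median was 0.70, and of all tested genes 34.1% rose and 33.7% fell. CTSB, which encodes cathepsin B, averaged 405 CPM with monensin and 182 CPM without it (log2 fold change 1.15, SE 0.04, adjusted p = 1.26e-12). With DESeq2, 3 of the 5 were called higher. Of 8 adaptor genes, 7 were tested, 3 rose (42.9%) and 3 fell (42.9%), with a median of 0.06. TIRAP, which bridges TLR2 and TLR4 to MYD88, fell by 0.43 on the log2 scale (adjusted p = 1.07e-05, SE 0.06), whereas TICAM1, which encodes the adaptor TRIF, rose by 0.60 (SE 0.07, adjusted p = 1.25e-06). SARM1, which encodes a TIR-domain NAD hydrolase, averaged 3.88 CPM with monensin and 1.66 CPM without it (a 2.33-fold rise, adjusted p = 5.63e-06). TICAM2, which bridges TLR4 to TRIF, was below the filter, with 10 reads over the monensin libraries and 15 over the untreated libraries.

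All 23 proximal kinases and ligases were tested, and 8 rose and 11 fell, and their median was -0.17. The share that rose, 34.8%, was close to the 34.1% of all tested genes, and 47.8% fell, beside 33.7% of all. Scaling by total counts alone left 8 that rose and 8 that fell. IRAK4, the first kinase bound by MYD88, had 37.99 CPM with monensin and 37.6 CPM without it and was not called (adjusted p = 0.830). TRAF6, the ubiquitin ligase that follows the IRAK kinases, fell by 0.43 on the log2 scale (adjusted p = 9.17e-05, SE 0.07). No member of this list reached a 2-fold change. Of 12 transcription factors downstream, 5 rose (41.7%, beside 34.1% of all tested genes) and 3 fell, with a median of 0.01. The share that fell was below the 33.7% of all tested genes, but 6 fell after removing trends with GC content and length. REL, IRF8 and NFKB1 were the factors that fell, with log2 fold changes of -0.94, -0.33 and -0.3, and are named after their values were seen. NFKB2 averaged 53.4 CPM with monensin and 18.1 CPM without it (log2 fold change 1.56, SE 0.08), and its partner RELB 23.8 CPM with monensin and 10.9 CPM without it (log2 fold change 1.12, SE 0.07). ATF3 rose by 2.25 (SE 0.21) and IRF7 by 1.41 (SE 0.11) on the log2 scale, with adjusted p = 1.05e-07 and 1.31e-08 by edgeR.

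Of 17 negative regulators, 15 were tested, 11 rose (73.3%, beside 34.1% of all tested genes) and 2 fell, with a median of 0.53. The number that fell was 1 under total counts alone and without monensin library 2, untreated library 1 or untreated library 2. TNFAIP3, which encodes the deubiquitinase A20, averaged 21.9 CPM with monensin and 6.09 CPM without it (log2 fold change 1.85, SE 0.10, adjusted p = 2.43e-10). NFKBIA, the inhibitor of NF-kB, rose 2.21-fold (log2 1.14, SE 0.06), SOCS1 by 1.12 (SE 0.17) and the inhibitory receptor CD300LF by 1.00 (SE 0.06). IRAK3 and TNIP1 were the regulators that fell, with log2 fold changes of -0.25 and -0.13, and are named after their values were seen. TOLLIP and SIGIRR, also named so, rose by 0.53 and 0.49.

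In the list of 6 MYD88-using interleukin receptor genes, all 4 that were tested fell, with a median of -1.27. The list also holds the decoy receptor gene IL1R2, whose product does not use MYD88. Of all tested genes, 34.1% rose and 33.7% fell. IL18RAP had 1, 2 and 1 reads in the monensin libraries and 17, 19 and 19 reads in the untreated libraries, and IL18R1 had 5, 7 and 5 reads with monensin and 16, 18 and 18 reads without it. IL1RAP and IL1R1 fell by 0.63 and 0.92 on the log2 scale. IL18RAP and IL18R1 passed the filter through the untreated libraries alone, and under the stricter filter, which left 2 genes, the median was -0.76. Without a filter the median of the list was -0.8. IL1R2 and IL1RL2 were below the filter, with 10 and 2 reads over the monensin libraries and 3 and 1 over the untreated libraries. These interleukin receptor genes are named after their values were seen. Of 9 other pattern receptors, 7 were tested, 3 rose (42.9%) and NLRP3 alone fell (14.3%), and their median was 0.10. Scaling by total counts alone gave 5 that rose, and DESeq2 gave 2, as did leaving out untreated library 3. After removing trends with GC content and length 4 rose and 2 fell.

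Of 12 genes induced by receptor signalling, 7 were tested, 4 rose (57.1%) and 0 fell (median 0.90). Of all tested genes, 34.1% rose and 33.7% fell. The number that rose was 3 under the stricter filter, which left 6 genes, and 5 without monensin library 2 or monensin library 3. The adhesion molecule ICAM1 averaged 24.4 CPM with monensin and 3.96 CPM without it (log2 fold change 2.62, SE 0.10, adjusted p = 2.78e-12). TNF, CCL2 and CCL3 were the others that rose, by 0.90, 2.38 and 1.68 on the log2 scale. CCL2 and CCL3 passed the filter only through the monensin libraries. CXCL8, PTGS2 and IL1B were tested and not called, with log2 fold changes of -0.02, 0.08 and 0.47. IL6 was at 0 in all 6 libraries, and CXCL10 had 3 reads over the monensin libraries and 0 over the untreated libraries. These genes other than ICAM1, like NLRP3 above, are named after their values were seen.

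**Figure D4:**
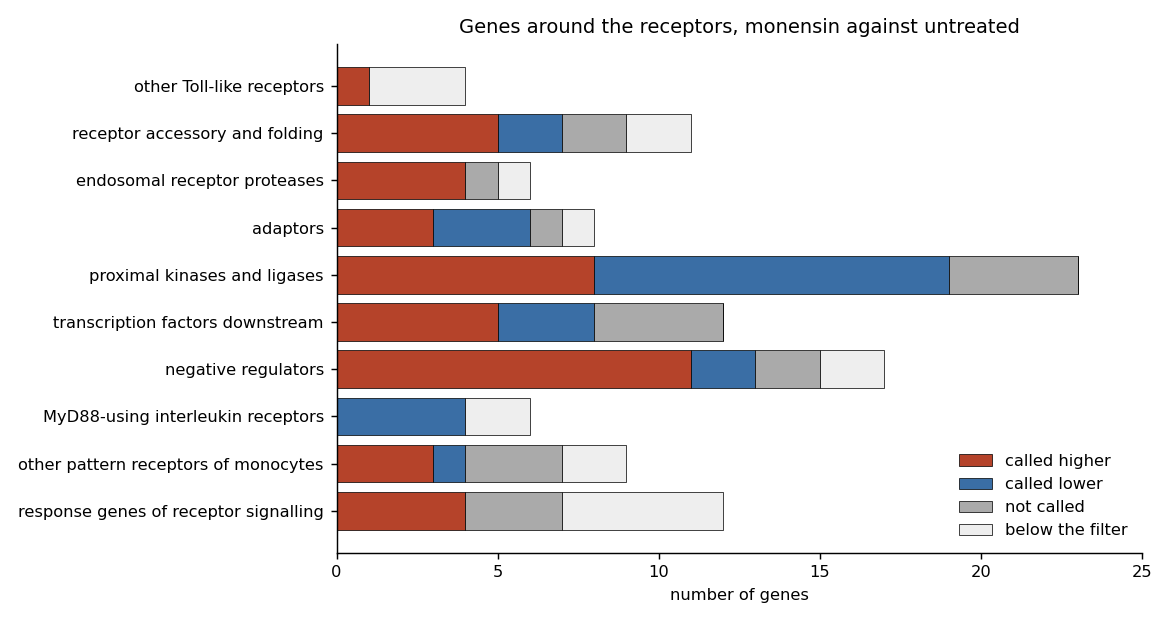
Number of genes (horizontal axis, from 0) in each of the 10 lists that were called higher with monensin (red), called lower (blue), not called (grey) or below the filter on low counts (pale). The negative regulators hold 11 higher and 2 lower genes, the proximal kinases and ligases 8 higher and 11 lower, and the MYD88-using interleukin receptors 4 lower and 0 higher.

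The authors' deposited table of 2410 regulated genes listed 4 of the 10 members, where 58395 genes were counted. It was deposited with these libraries for the same comparison, so it is not an independent check. Its log2 fold changes, given without an error, were 3.41 for TLR8, 3.04 for LY96, 2.29 for CD14 and 1.79 for TLR5. That of TLR8 rests on few reads, 22 over the monensin libraries and 2 over the untreated libraries, below the filter used here. The smallest absolute value in that table was 1.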

How the data were processed

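The authors deposited per library the raw read counts of Ensembl genes, not normalized, and a list of log2 fold changes without errors. The submitters' processing notes name bcl2fastq, Trimmomatic 038, HISAT2 2.1.0, HTSeq 0.11.1, DESeq2 1.22.2 and the build hg38 (GRCh38); the annotation release and the strand setting of counting were not given in the sources used here. This kit was directional and reads had 75 bases, per the labels' protocols. Each file held 58395 genes and 5 tally lines, which took 21.6% ± 0.401 of tallied alignments in monensin libraries and 19.3% ± 0.389 in untreated libraries and stayed out of library sizes and tests.

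Groups came from the treatment label. The main test was that of edgeR 4.0.16 under R 4.3.3 (quasi-likelihood F test, TMM, filter by group at a count of 10 in a library of median depth, about 0.409 CPM, in 3 libraries), with treatment as the only term and adjustment over all tested genes. Standard errors came from the coefficient and its F statistic. Exonic lengths, GC content and coordinates came from GENCODE 29, which held 58275 of the gene identifiers, and promoters from RefSeq on GRCh38.p14. Of 108 pathway genes all were matched. Fits were tested on simulated data.

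The members and lists were chosen with earlier results of these data known. Named pathway genes are called genes whose log2 fold change was at least 1 in size, with an average log2 CPM of 1 or more, at most 5 per list, plus the other Toll-like receptors and TIRAP, TICAM1, TICAM2, IRAK4, TRAF6, HSP90B1 and CNPY3. Distances between profiles used log2(CPM + 0.25), with 0.01 as an alternative. Alternatives were RLE factors, total counts, testing without a filter or with a stricter one (1 CPM in 3 libraries, 50 counts in all), the replicate block, DESeq2 1.42.0, removal of GC and length trends, no mitochondrial genes, and each library left out. Principal transcript lengths and the smaller pseudocount were added after seeing the data.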

Additional observations from a re-analysis of the deposited data

Results flagged for a closer look

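Reads outside the annotated genes, which no comparison used, were more frequent with monensin. They took 10.89% ± 0.442 of tallied alignments in monensin libraries and 8.80% ± 0.190 in untreated libraries (mean ± SD, n = 3 each), and the groups did not overlap. The part of this difference in the values of the receptor genes was not tested.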

How the results depend on the processing

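The calls of CD14, TLR5 and MYD88 kept their direction and stayed past the threshold under all 14 alternatives, and that of LY96 under the 13 that kept it, since the stricter filter removed it. The higher-called members numbered from 2 to 4 and the lower-called from 2 to 3. After removing trends with GC content and length, TLR4 had a log2 fold change of 0.07 and UNC93B1 one of -0.24 (adjusted p = 1.29e-05), both against their main direction, and TLR2 lost its call at -0.03; the cause was not tested. Under the stricter filter TLR4 had an adjusted p of 0.0717. Leaving out each library moved no count of members, of all listed pathway genes together or of all genes by over 1.5 times. Counts of all called genes ran from 4844 to 6582 higher and from 4605 to 5841 lower. Total counts alone put the median log2 fold change of all tested genes at 0.105, beside 0.019 with TMM.

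Deviations from the group means gave no sign that replicate numbers pair the libraries. Those of same-numbered libraries correlated across genes at -0.119, 0.140 and 0.0414, and those of differently numbered libraries at between -0.2 and 0.159. With 3 libraries in each group these values cannot settle pairing. With the replicate number as a block, 3 members were called higher and 2 lower (5515 and 5435 of all genes), and TLR4 missed the threshold (adjusted p = 0.0504).

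Depth limits TLR8, LY96 and TLR7, whose untreated libraries held 6 or fewer reads, and levels per length depend on the transcript length assumed.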
